A study of Mus musculus with 6 samples.

Results

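The genes studied here carry glucose, amino acids and lactate across the membrane of regulatory T cells (Tregs), a CD4 T cell lineage set by the transcription factor Foxp3 that holds immune reactions in check. The 9 were picked by symbol, as Slc2a1, Slc2a3, Slc3a2, Slc7a5, Slc7a1, Slc1a5, Slc38a1, Slc38a2 and Slc16a1, and all were found among the 37187 genes of the deposited tables. Each was expressed well enough to be tested, with 5557 reads for Slc16a1 to 52637 reads for Slc38a2 over the 6 libraries. The choice of symbols used no measured value, although it was made with earlier results of these data known.

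The Tregs were sorted by surface CD4, CD25 and GITR from lymph nodes draining a B16.F10 melanoma, a transplantable mouse tumour line, 14 days after 300000 cells had been injected under the skin. WT mice were C57BL6 (replicates 1 to 3) and KO mice were il33-/- on a C57BL6 background (replicates 4 to 6), so both groups carried the tumour and no group without a tumour was analysed here. IL-33 is an alarmin cytokine, and the comparison of KO with WT asks how its loss changes the Tregs of a tumour-bearing host. The labels give neither the age of the mice nor the deleted part of Il33, and do not say whether each library came from 1 animal, so that the p-values speak of the spread among these libraries.

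Activated lymphocytes take up much more glucose and amino acid than resting ones, and transporter genes are among those switched on by receptor signals. GLUT1 (Slc2a1) and GLUT3 (Slc2a3) let glucose in by facilitated diffusion. LAT1 (Slc7a5) exchanges large neutral amino acids such as leucine and works only as a pair with the heavy chain CD98 (Slc3a2), while CAT-1 (Slc7a1) brings in arginine and lysine. ASCT2 (Slc1a5), SNAT1 (Slc38a1) and SNAT2 (Slc38a2) supply glutamine and other small neutral amino acids, and MCT1 (Slc16a1) moves lactate and other monocarboxylates with protons.

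Total counts ran from 18071928 to 21165063 per library. Il33 had 7, 0 and 9 counts in WT and 3, 8 and 2 in KO, too few to check the labels. Foxp3 stood at 719 to 803 CPM (counts relative to library size, scaled between libraries) in WT and 789.7 to 857 CPM in KO. The 7 Treg markers summed to 3664 to 4243 CPM in WT and 4407 to 4718 CPM in KO, with Ctla4 (log2 fold change 0.53) and Ikzf4 (0.32) called higher. The 19 T lineage markers summed to 8381 to 8913 CPM in WT and 8937 to 9508 CPM in KO, with Cd28 (0.38) and Bcl11b (0.28) called higher. Both sums thus lay higher in every KO library, as did the carriers that rose, and their part in those rises was not tested beyond the scaling to T lineage transcripts given further on. The 18 B cell markers present summed to 3868, 2305 and 3173 CPM in the WT libraries, in order of replicate, against 1396, 1740.3 and 1388 CPM in the KO libraries. Ighm alone gave 1447, 1061 and 1302 CPM of these sums in WT and 924, 1118 and 1017 CPM in KO. Cd72 gave 558 CPM in WT replicate 2, against 86.1 and 73.0 CPM in WT replicates 1 and 3. All 18 B cell markers had negative log2 fold changes, with a median of -1.92. Of these, 1 passed by edgeR and 15 by DESeq2. Among all genes, edgeR called 385 of 13626 lower and DESeq2 621 of 24068. Summed myeloid markers overlapped between the groups, at 44.3 to 60.9 CPM in WT and 40.6 to 64.2 CPM in KO, although Cd68 alone was called higher (0.91) and the other 5 tested had negative values. Dendritic markers summed to 8.84 to 13.1 CPM in WT and 6.85 to 9.44 CPM in KO, again overlapping. Siglech was called lower (-1.27), while of the 5 tested 3 had positive and 2 negative log2 fold changes. Markers of stroma, endothelium and melanoma summed to 234 to 249 CPM in WT and 279 to 289 CPM in KO. Pecam1 alone gave most of this, with 206 to 226 CPM in WT and 242 to 253 CPM in KO. Of these markers, Pecam1 (0.20) and the melanoma marker Pmel (0.42) were called higher. Tyr and Dct were at 0 in all 6 libraries and Mlana had 10 reads in all. Cdh5 and Pdgfra, with 47 and 6 reads in all, were too low to be tested. Plasma cell markers summed to 250 to 292 CPM in WT and 263 to 329 CPM in KO, with Sdc1 called lower (-0.96). Of the 4 tested, 2 had positive and 2 negative values. CD8 and NK markers summed to 52.3 to 58.2 CPM in WT and 41.5 to 52.6 CPM in KO, with 0 of 6 called. Erythroid markers summed to at most 1.71 CPM in any library. The part of these other cell markers in the carriers' values was not tested. In sorted bulk cells a shift in which cells are present and a shift in RNA per cell cannot be told apart.

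Of the 9 carriers, 5 were higher in KO Tregs, 0 were lower and 4 did not pass the test. Those that rose were the small neutral amino acid carrier Slc38a2, the monocarboxylate carrier Slc16a1, both glucose carriers and the CD98 heavy chain, by 21.9% to 47.3%. The remaining 4, Slc7a5, Slc7a1, Slc1a5 and Slc38a1, had log2 fold changes from -0.11 to 0.19. The median log2 fold change of the 9 was 0.29, beside 0.00 for all 13626 genes tested. Among all genes, 3.68% were called higher and 2.83% lower. Calls were made with the quasi-likelihood test of edgeR at a Benjamini-Hochberg adjusted p below 0.05. At an unadjusted p below 0.05, 7 carriers were higher and 0 lower. By rank, at least 2351 of all 13626 genes, in either direction, lay below that p. DESeq2 and limma-voom each called 5 carriers higher and 0 lower. Over all genes DESeq2 called 545 higher and 621 lower of 24068, and limma-voom 397 higher and 303 lower of 13626. For 6 carriers every KO library lay above every WT library (13.7% of all genes did so), and for Slc1a5 every KO library lay below (12.6% of all genes).

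**Figure D1:**
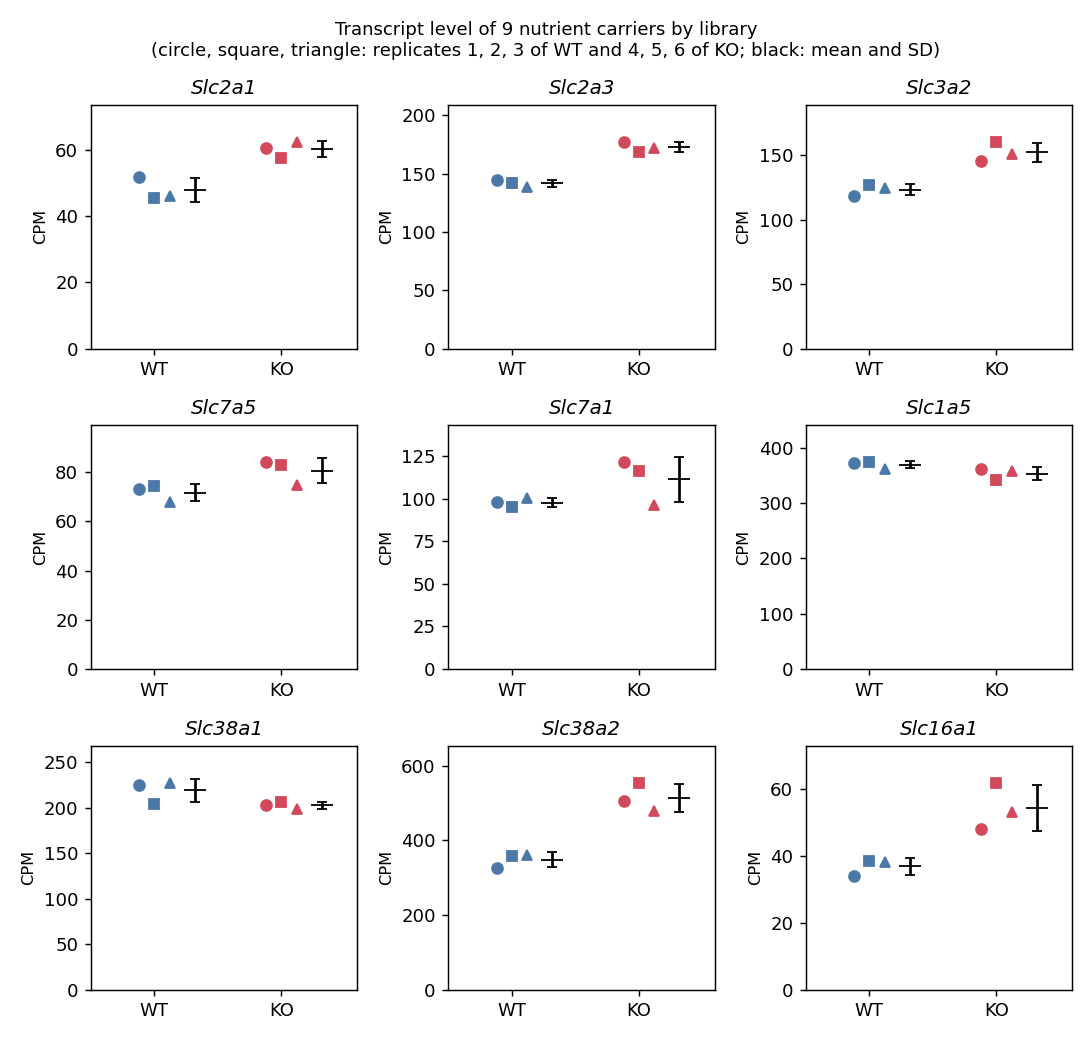
Each panel shows 1 carrier, with CPM on a linear axis from 0, the 3 WT libraries in blue, the 3 KO libraries in red and black bars for mean and SD. KO points lie above every WT point for Slc2a1, Slc2a3, Slc3a2, Slc7a5, Slc38a2 and Slc16a1, and Slc1a5 and Slc38a1 sit slightly lower in KO on average.

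Slc38a2 gave the strongest evidence of the 9. It encodes SNAT2, a sodium-coupled carrier of alanine, serine, glutamine and related amino acids that many cells make in larger amount when amino acids run short. Its WT level was 327, 358 and 361 CPM (replicates 1, 2 and 3), and its KO level 507, 554 and 479.9 CPM (replicates 4, 5 and 6). The lowest KO library lay well above the highest WT library. The means were 349 ± 19.2 and 513 ± 37.4 CPM (SD, n = 3 each). This is a difference of 0.56 on the log2 scale (SE 0.06, 95% interval 0.42 to 0.70, edgeR adjusted p = 0.000272). By p it ranked number 34 of the 13626 genes.

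Slc16a1 rose by as much from a far lower level. Its product MCT1 carries lactate, pyruvate and ketone bodies in either direction, following the proton gradient. It had 33.9, 38.5 and 38.1 CPM in WT and 47.9, 61.7 and 53.0 CPM in KO. The groups did not overlap, and the KO libraries were the more scattered, with a coefficient of variation of 12.8% against 6.82% in WT. The log2 fold change was 0.56 (SE 0.09, edgeR adjusted p = 0.00391). Basigin (Bsg) and embigin (Emb), the membrane chaperones that bring MCT1 to the cell surface, were looked at for that role. They had log2 fold changes of 0.04 (SE 0.06) and 0.01 (SE 0.07) and did not pass.

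The stretches of DNA just upstream of these 2 genes are shown because they were the carriers with the largest rises. Both are from RefSeq on GRCm38.p6, which lists starts for 5 of the 9 carriers (Slc2a1, Slc3a2, Slc7a1, Slc38a2 and Slc16a1). Each is 250 bases long, is printed 5′ to 3′ on the strand of the gene and ends at the base before the RefSeq start. Capitals mark a match to any motif searched, on either strand. Slc38a2 lies at chr15:96699729-96699978 on the minus strand and Slc16a1 at chr3:104638414-104638663 on the plus strand.
Slc38a2: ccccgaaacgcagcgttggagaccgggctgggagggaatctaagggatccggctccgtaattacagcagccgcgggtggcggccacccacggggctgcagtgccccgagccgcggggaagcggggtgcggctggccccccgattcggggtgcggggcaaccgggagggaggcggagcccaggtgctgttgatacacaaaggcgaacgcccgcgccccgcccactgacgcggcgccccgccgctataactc
Slc16a1: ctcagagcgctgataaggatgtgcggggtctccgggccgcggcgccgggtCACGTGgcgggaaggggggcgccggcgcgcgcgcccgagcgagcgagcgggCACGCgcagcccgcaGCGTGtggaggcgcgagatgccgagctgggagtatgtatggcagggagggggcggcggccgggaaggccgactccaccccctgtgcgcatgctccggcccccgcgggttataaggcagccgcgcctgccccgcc

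Both windows are rich in G and C, at 72.0% for Slc38a2 and 76.4% for Slc16a1, beside a median of 52.4% over 32851 promoters. The Slc16a1 window holds an E-box, CACGTG, the word read by MYC and related factors, 200 to 195 bases before the start. That word is in 6.02% of all promoters. The core words of the hypoxia response, ACGTG and GCGTG, are in 16.6% and 28.2% of promoters. Slc16a1 and Slc2a1 hold both and Slc3a2 holds ACGTG, and the ACGTG matches of Slc16a1 lie inside its E-box. The Slc3a2 window, chr19:8713898-8714147, lies within the span of that gene. The bases after its RefSeq start were not found near the start of a GENCODE M21 transcript. The AP-1 word TGACTCA, whose reverse complement TGAGTCA is the same site, was found in 4.46% of promoters and is in 1 of the 2 Slc7a1 windows. The amino acid response words TGATGCAA (0.791% of promoters) and TGATGNAAT (0.816%) and, for NF-kB, the word GGGANTTCC (1.43%) and the classical longer word (0.14%) have no match in the 6 windows of these genes. The Slc38a2 window holds none of the words searched. A match describes the letters only, and no match says nothing of a factor's action elsewhere in the gene.

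Both glucose carriers were higher in KO, by about the same factor. Slc2a3, the high-affinity carrier GLUT3, had 144, 142 and 139 CPM in WT and 177, 169 and 172 CPM in KO. This was the tightest of the 5 rises, with coefficients of variation of 2.03% and 2.52% and a wide gap between the groups. Its log2 fold change was 0.29 (SE 0.05, edgeR adjusted p = 0.00761). Slc2a1, which encodes GLUT1, the glucose carrier best known from activated T cells, had 51.9, 45.3 and 46.0 CPM in WT and 60.5, 57.6 and 62.4 CPM in KO. WT replicate 1 was the highest WT library and still lay below all KO libraries. Its log2 fold change was 0.33 (SE 0.07, edgeR adjusted p = 0.0137).

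The ratio of Slc2a1 to Slc2a3, taken from FPKM (fragments relative to gene length and library size), showed no detectable shift between the groups. It was 0.913, 0.810 and 0.843 in WT and 0.867, 0.867 and 0.919 in KO. The difference in the log2 ratio was 0.05, with a two-sided exact permutation p of 0.4, and 0.4 after adjustment over the 3 pairs compared. With 3 libraries against 3 this test cannot go below 0.1.

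Of the CD98 and LAT1 pair, the heavy chain rose and the light chain did not pass. Slc3a2 had 118, 127 and 125 CPM in WT and 145, 160.3 and 151 CPM in KO. All KO libraries exceeded all WT libraries, and the log2 fold change was 0.30 (SE 0.06, edgeR adjusted p = 0.00919). Slc7a5 had 73.1, 74.3 and 67.7 CPM in WT and 83.9, 83.1 and 74.9 CPM in KO. The groups were also apart, but KO replicate 6 cleared WT replicate 2 by under 1 CPM, and the log2 fold change of 0.17 (SE 0.07, 95% interval 0.03 to 0.31) had an edgeR adjusted p of 0.150. The ratio of Slc7a5 to Slc3a2 in FPKM was 0.520, 0.493 and 0.457 in WT and 0.486, 0.436 and 0.417 in KO, overlapping ranges with a two-sided exact permutation p of 0.2 (0.3 adjusted over the 3 pairs). A different response of the 2 chains was therefore not shown.

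Slc7a1, the carrier of arginine and lysine, was decided by 1 library. It had 97.8, 94.9 and 100.3 CPM in WT, and 121, 116 and 96.5 CPM in KO. KO replicates 4 and 5 were above every WT library, while KO replicate 6 fell within the WT range. The log2 fold change was 0.19 (SE 0.08, 95% interval 0.02 to 0.36, edgeR adjusted p = 0.176). Without KO replicate 6 it was 0.28, with an edgeR adjusted p of 0.0277.

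The glutamine carriers Slc1a5 and Slc38a1 did not follow Slc38a2. Slc1a5, which encodes ASCT2, had 372, 374 and 362.1 CPM in WT and 361.7, 341 and 358 CPM in KO. The highest KO library lay barely below the lowest WT library, and the log2 fold change was -0.06 (SE 0.05, 95% interval -0.17 to 0.05, edgeR adjusted p = 0.528). The interval leaves out a rise of the size seen for the 5 genes that passed. Slc38a1, which encodes SNAT1, had 225, 204.4 and 227 CPM in WT and 203.5, 206 and 198 CPM in KO. WT replicate 2 lay among the KO libraries, and the log2 fold change was -0.11 (SE 0.06, 95% interval -0.23 to 0.01, edgeR adjusted p = 0.278).

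Slc38a1 and Slc38a2 are neighbours on chromosome 15, both on the minus strand and 44.5 kb apart, with 0 protein-coding genes of GENCODE M21 between them. Slc38a1 (ENSMUSG00000023169) spans 96571418 to 96642913 and Slc38a2 (ENSMUSG00000022462) spans 96687392 to 96699730 on GRCm38. The FPKM ratio of Slc38a1 to Slc38a2 was 0.380, 0.315 and 0.346 in WT and 0.221, 0.205 and 0.228 in KO. Every KO library lay below every WT library, and the difference in the log2 ratio was -0.67. Its two-sided exact permutation p was 0.1, the smallest that 3 against 3 allow, or 0.3 adjusted over the 3 pairs. A ratio within a library does not depend on the scaling between libraries, and leaving out any 1 library gave -0.74 to -0.60.

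The other members lie on separate chromosomes. Slc2a1 (ENSMUSG00000028645) is on chromosome 4 (119108711 to 119137983, plus strand) and Slc2a3 (ENSMUSG00000003153) on chromosome 6 (122727809 to 122801640, minus strand). Slc7a5 (ENSMUSG00000040010) is on chromosome 8 (121881150 to 121907694, minus strand) and Slc7a1 (ENSMUSG00000041313) on chromosome 5 (148327410 to 148399904, minus strand). Slc1a5 (ENSMUSG00000001918) is on chromosome 7 (16781340 to 16798274, plus strand) and Slc16a1 (ENSMUSG00000032902) on chromosome 3 (104638668 to 104658462, plus strand). Slc3a2 (ENSMUSG00000010095, 8706882 to 8723369, minus strand) shares chromosome 19 with the deleted Il33 gene, at a distance of 21.2 Mb. Few of the transcript words of 50 bases of any member occur in another gene, at most 4.23% for Slc38a1 and 3.51% for Slc3a2, so that little of their signal could be split with near-identical copies. The antisense gene Gm12868 overlaps an exon of Slc2a1 but had 23 reads in all against 6584 for Slc2a1.

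By level in the deposited FPKM the carriers spanned a wide range, and the order changed at the top. The gene lengths behind these FPKM were not given. GENCODE M21 exons cover 8838 bases for Slc38a2, 17236 for Slc38a1 and 4173 for Slc1a5. With WT means of 349 CPM for Slc38a2 and 219 CPM for Slc38a1, their FPKM rest on shorter lengths than these. At the full exon lengths both would stand lower, so their places and the change at the top depend on the length used. In FPKM, Slc1a5 was highest in WT at 88.5 ± 1.63 (SD, n = 3), followed by Slc38a2 at 75.1 ± 4.15, Slc3a2 at 41.6 ± 1.53 and Slc38a1 at 26.0 ± 1.45. Slc7a5 (20.3 ± 1.04) and Slc2a3 (19.5 ± 0.411) came next with overlapping libraries, and then Slc2a1 (16.7 ± 1.24), Slc7a1 (12.9 ± 0.330) and Slc16a1 (8.29 ± 0.570). All other neighbours in the WT order had libraries that did not overlap. In KO, Slc38a2 stood first at 110.3 ± 8.38 and Slc1a5 second at 84.6 ± 2.51, with no overlap between the 2. Further down the KO order, Slc38a1 overlapped Slc2a3, Slc2a3 overlapped Slc7a5 and Slc7a5 overlapped Slc2a1. Slc2a1 did not overlap Slc7a1, and Slc7a1 overlapped Slc16a1.

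The 9 genes together held 305, 312 and 309 FPKM in WT and 365, 376 and 353 FPKM in KO, so the summed level was higher in every KO library. Slc38a2 made up 23.0%, 24.8% and 25.1% of that sum in WT and 29.9%, 31.7% and 29.1% in KO. Slc1a5 made up 29.2%, 28.8% and 28.0% in WT and 23.8%, 21.8% and 24.2% in KO. For Slc38a1 the WT shares of 7.79% to 8.76% lay above the KO shares of 6.51% to 6.64%, and for Slc16a1 the KO shares were the higher, with means of 3.34% against 2.68%. The other 5 carriers had overlapping shares. These shares are bound to sum to the whole, so that a larger share of Slc38a2 lowers the others. Like the order of levels, their sizes depend on the gene lengths behind the deposited FPKM.

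**Figure D2:**
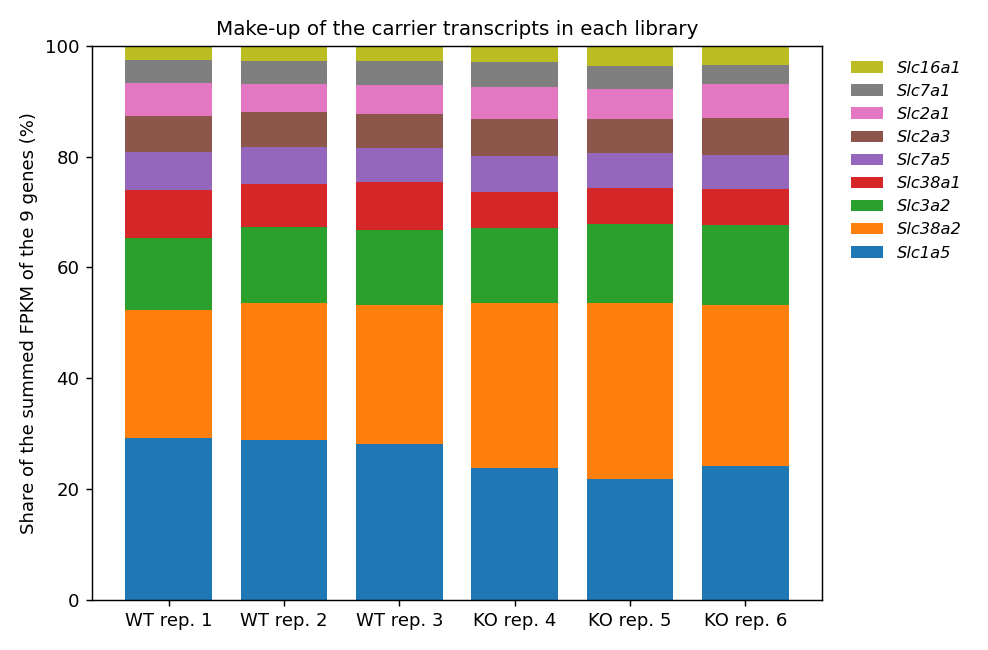
Stacked bars give the share of each carrier in the summed FPKM of the 9 genes, in percent, for each of the 6 libraries. The Slc38a2 block widens from 23.0% to 25.1% in WT to 29.1% to 31.7% in KO, and the Slc1a5 block narrows.

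The other carriers of these families were counted in the same fit. Of 70 further sugar, amino acid and monocarboxylate carriers and chaperones listed, 35 were expressed enough to be tested, of which 1 was higher in KO, 3 were lower and 31 did not pass. Their median log2 fold change was -0.03, and 17 were positive and 18 negative. The 4 other sugar carriers tested were all negative, with a median of -0.24. At least 2351 of all 13626 genes, in either direction, had an unadjusted edgeR p below 0.05. At that p, 3 other carriers were higher and 6 lower. Slc2a8 was among the lower ones (-0.41, edgeR adjusted p = 0.129). By adjusted p, the 4 called are 11.4% of those tested, and among all genes 6.5% were called in either direction. Slc7a10, an exchanger of small neutral amino acids such as serine and alanine, was the 1 that rose, from 3.16 ± 0.469 to 7.38 ± 0.915 CPM (SD, n = 3 each). That is 1.22 on the log2 scale (SE 0.18, edgeR adjusted p = 0.00174), with 0.90 and no call (0.417) when the B cell score defined further on was a covariate. As 12.9% of its transcript words also occur in another gene, mostly Lrp3, some of its reads may belong there.

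The 3 that fell were Slc36a1, Slc16a10 from the family of Slc16a1, and Slc2a6 from the family of Slc2a1 and Slc2a3. Slc36a1, a proton-coupled amino acid carrier of lysosomes, went from 56.6 ± 3.98 to 45.8 ± 2.07 CPM (SD, n = 3 each, edgeR adjusted p = 0.0210). Slc16a10, a carrier of aromatic amino acids, went from 12.5 ± 1.01 to 8.81 ± 1.22 CPM (edgeR adjusted p = 0.0417). Slc2a6, a sugar carrier of the GLUT family, went from 5.44 ± 1.05 to 3.03 ± 0.342 CPM (edgeR adjusted p = 0.0245). Without WT replicate 3, KO replicate 5 or KO replicate 6 the call for Slc36a1 was lost, at edgeR adjusted p-values of 0.0790, 0.0661 and 0.0932. Slc16a10 lost it without any 1 of the 6 libraries (0.0701 to 0.111) and with limma-voom (0.0588), and Slc2a6 without WT replicate 1 or any KO library (0.0591 to 0.126). WT replicate 2, the WT library with least B cell signal, was the highest for Slc36a1 (60.8 CPM) and Slc16a10 (13.7 CPM) and the middle one for Slc2a6 (5.20 CPM). Of 11 monocarboxylate carriers and chaperones tested, 0 passed by edgeR, DESeq2 or limma-voom. At an unadjusted edgeR p below 0.05, as for at least 2351 of all 13626 genes, 1 was higher and 0 lower. Slc16a8 and Slc16a6, the nearest to passing, had log2 fold changes of 1.04 (SE 0.46) and -0.17 (SE 0.08). Slc16a6, of which 21.2% of transcript words occur in another gene, passed without WT replicate 2 (-0.26, edgeR adjusted p = 0.0452).

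Among 23 genes of nutrient sensing and carrier control, 2 were higher in KO, 0 were lower and 21 did not pass, with a median log2 fold change of -0.01. Among all genes 3.68% were called higher and 2.83% lower. Atf4 encodes a transcription factor of the amino acid and stress response that is known to act on several amino acid carrier genes. It had 246, 242 and 247 CPM in WT and 282, 295 and 318 CPM in KO. The groups were well apart, and the log2 fold change was 0.28 (SE 0.06, edgeR adjusted p = 0.0101). Rragd, a GTPase that links amino acids to mTORC1, rose by 0.39 (SE 0.10, edgeR adjusted p = 0.0390). Atf4 lost its call without WT replicate 3 (edgeR adjusted p = 0.0556), and Rragd passed only when WT replicate 2 was the library left out, with 0.0738 to 0.145 without each of the others. Scaled to T lineage transcripts, Atf4 had 0.19 and Rragd 0.29 and neither passed (edgeR adjusted p = 0.0844 and 0.0942), and limma-voom did not call Rragd (adjusted p = 0.0553). Txnip, which drives GLUT1 from the surface, Myc and Hif1a were picked from the list for their known roles after their values were seen. Txnip had 0.02 (SE 0.07), Myc 0.12 (SE 0.06) and Hif1a 0.23 (SE 0.11) as log2 fold changes, all short of the threshold.

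Of 13 tested enzymes that use or make carried nutrients or their near products, 3 were higher, 0 were lower and 10 did not pass. Their median log2 fold change was 0.24, and the shares of all genes called higher and lower were again 3.68% and 2.83%. Bcat1, which starts the breakdown of leucine, isoleucine and valine, had 12.6, 15.1 and 12.8 CPM in WT and 21.9, 20.4 and 18.9 CPM in KO, or 0.59 on the log2 scale (SE 0.11, edgeR adjusted p = 0.00744). Odc1, which makes putrescine from ornithine, had 99.5, 142 and 139 CPM in WT and 202, 232 and 202 CPM in KO, or 0.74 on the log2 scale (SE 0.15, edgeR adjusted p = 0.0397). Glul, which makes glutamine, rose by 0.24 (SE 0.06, edgeR adjusted p = 0.0374). For each the KO libraries lay above the WT libraries, as for 13.7% of all genes. Odc1 and Glul share 24.3% and 12.6% of their transcript words with other genes, so their counts are uncertain. Odc1 lost its call without WT replicate 3 or any KO library (0.0688 to 0.125), and Glul without WT replicates 1 or 3 or KO replicates 5 or 6 (0.108 to 0.130). Glul was also not called when scaled to T lineage transcripts (0.15, edgeR adjusted p = 0.193) or by limma-voom (0.24, adjusted p = 0.0588). Hk2, the inducible hexokinase that traps glucose, was chosen after its value was seen and had 0.48 (SE 0.15, edgeR adjusted p = 0.0891).

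**Figure D3:**
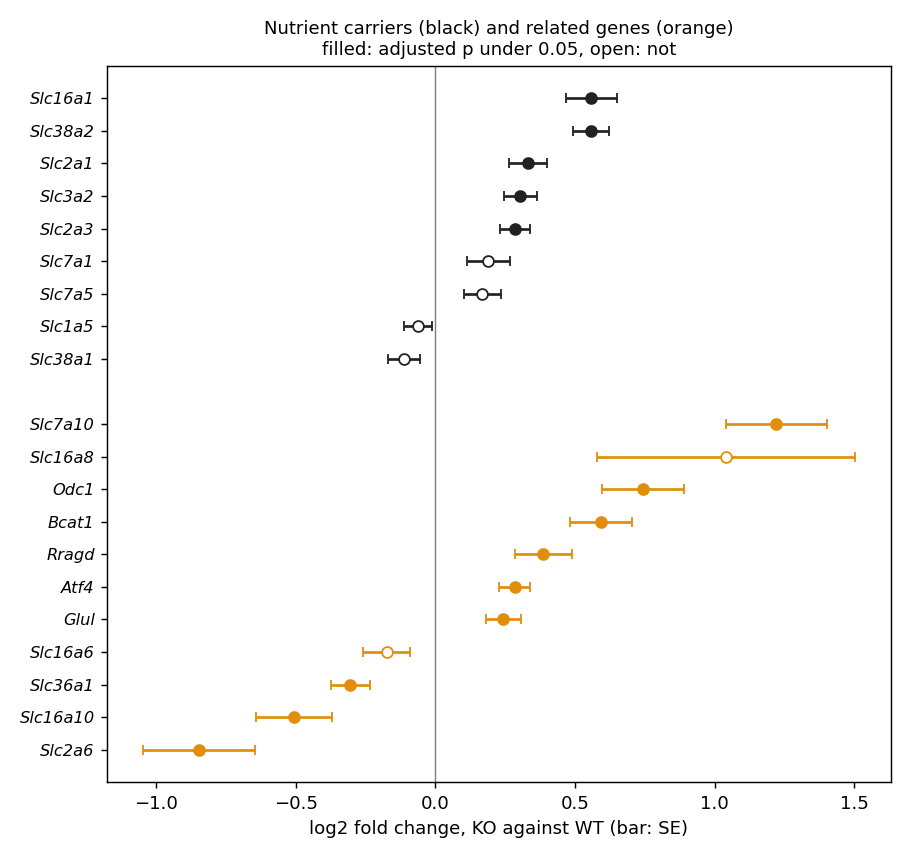
Points are log2 fold changes of KO against WT and bars their SE, with the 9 carriers in black, the named related genes in orange and filled points for those that passed. Slc38a2 and Slc16a1 stand at 0.56, Slc2a1, Slc3a2 and Slc2a3 between 0.29 and 0.33, and Slc1a5 and Slc38a1 just below 0.

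The carriers were also compared as profiles over the 6 libraries. The distance between 2 genes was taken as the root mean square difference of their log2 CPM after each was centred on its own mean. Slc2a1 and Slc2a3 were the closest pair of the 9 (0.06), while Slc38a2 lay nearest to Slc16a1 (0.08) and far from its relative Slc38a1 (0.35). The search covered 8706 other genes with a mean of at least 10 CPM. Predicted genes, clones, pseudogenes, antigen receptor segments and IDs not matched to the annotation were left out. Among those searched, the nearest to Slc38a2 were Dsel (0.03) and Rnf43 (0.05), to Slc16a1 Maged1 (0.05) and Clstn1 (0.06), and to Slc2a3 Gna12 (0.01) and Bhlhb9 (0.02). For Slc2a1 they were As3mt and Fas, for Slc3a2 Gcsh and Acsbg1, for Slc7a5 Eif2b3 and Spred2, for Slc7a1 Dpy19l4 and Tab3, for Slc1a5 Yeats2 and Wdr92, and for Slc38a1 Srf and Ptbp3. With so many genes and 6 libraries such near matches are a description only.

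The rises held their size better than their calls when the analysis was changed. The signal of B cell markers ran the other way from the 5 rises, and its part in them was not tested beyond the settings given here. With a B cell score as a covariate (the markers' average on the log2 CPM scale) the 5 had log2 fold changes of 0.27 to 0.56, and 0 of them passed (edgeR adjusted p from 0.0947 for Slc38a2 to 0.498 for Slc3a2). The score was 5.40 to 6.86 in WT and 4.26 to 5.01 in KO, so this fit can hardly separate it from the group. The SE of Slc38a2 was 0.13 with the score, against 0.06 in the reported fit. The lost calls therefore do not decide what part B cell signal had. The fit with the score called 28 genes higher and 17 lower over the whole table, against 501 and 385 in the reported one. The called genes of the other lists named above did not pass in it either, with edgeR adjusted p-values from 0.247 for Slc36a1 to 0.850 for Rragd. Their log2 fold changes there were -0.44 for Slc36a1, -0.73 for Slc16a10 and -0.74 for Slc2a6. They were 0.26 for Atf4, 0.40 for Bcat1, 0.51 for Odc1 and 0.18 for Glul, while Rragd had 0.17 against 0.39 in the reported fit. Scaled to the summed transcripts of 19 T lineage genes, 285 genes were higher and 847 lower. Slc38a2 and Slc16a1 then passed at 0.46 each (edgeR adjusted p = 0.00402 and 0.0152), while Slc2a1, Slc2a3 and Slc3a2 had 0.19 to 0.23 and did not pass (0.0785 to 0.0873).

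Single libraries mattered for the glucose carriers. Without WT replicate 3 the edgeR adjusted p was 0.0787 for Slc2a1 and 0.0538 for Slc2a3, and without KO replicate 6 it was 0.0641 for Slc2a1. Slc38a2, Slc16a1 and Slc3a2 passed whichever single library was left out, with edgeR adjusted p-values of at most 0.00421, 0.0255 and 0.0487. Without WT replicates 1 and 3, the WT libraries with most B cell signal, Slc38a2 (0.52) and Slc2a1 (0.41) passed at 0.00971 and 0.0437. Slc16a1, Slc2a3 and Slc3a2 then had 0.50, 0.28 and 0.26 and did not pass (0.0818, 0.176 and 0.240). That fit rests on WT replicate 2 alone and takes its spread from the KO libraries.

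**Figure D4:**
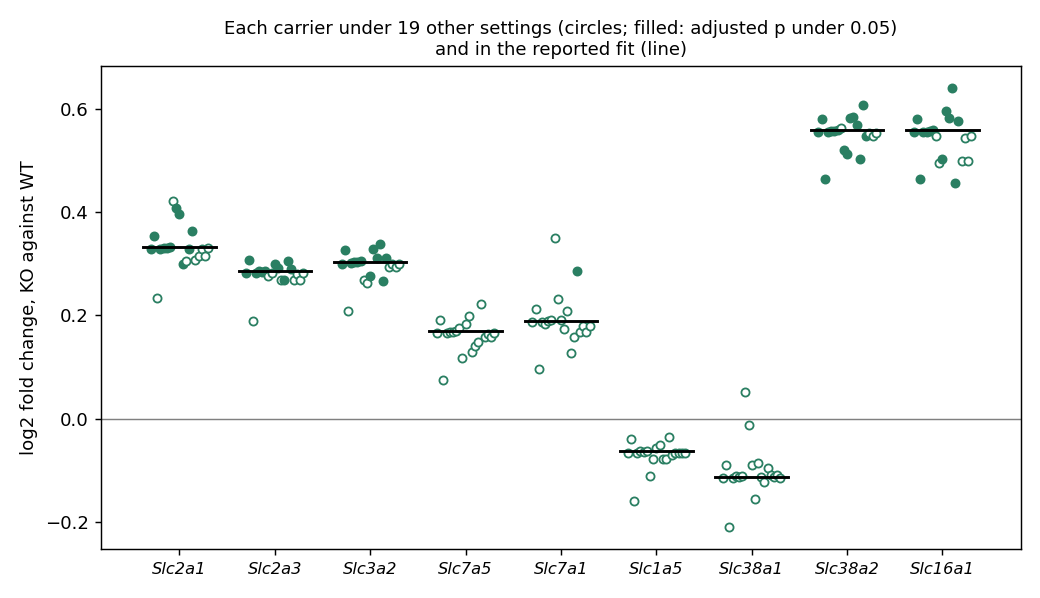
For each carrier the line is the reported log2 fold change of KO against WT and the circles are its values under 19 other settings, filled where the adjusted p was under 0.05. The circles of Slc38a2 run from 0.46 to 0.61 and those of Slc16a1 from 0.46 to 0.64, while those of Slc38a1 cross 0 with the B cell score as covariate.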

How the data were processed

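Messenger RNA of 6 Treg libraries (3 WT, 3 KO) was read from 3 tables. The authors deposited 1 table of raw counts by Ensembl ID, 1 of normalized counts by symbol (a signal equal to the raw count over 1 factor per library for 99.9% of 9335 genes, within 1e-06) and 1 of FPKM by symbol. Per the submitters' processing notes bcl2fastq, STAR 2.4.2a, DESeq2 and the build GRCm38 were used. How reads were counted, on which annotation and whether by strand, was not given in the sources used here, so a gene and its antisense partner cannot be told apart.

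Gene IDs were matched to GENCODE M21 (35412 of 37187, the other 1775 staying in the tests). The raw counts went into edgeR 4.0.16 under R 4.3.3 (genes kept by filterByExpr, libraries scaled by TMM, quasi-likelihood fit with the robust option, two-sided, Benjamini-Hochberg over all genes, threshold 0.05). A check on simulated data was also run, but its pass rule covered only changes far larger than those of the carriers. CPM use TMM factors, standard errors derive from the F statistic and 95% intervals are unadjusted. Motifs and shared words of 50 bases were searched with scripts. Pairs of libraries of 1 group had a chi-square per degree of freedom of 4.81 to 13.4, above sampling noise, so none was treated as a duplicate.

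The members and lists were chosen with earlier results of these data known. Named were the members, up to 4 called genes per list by p (2 where none passed) and the 2 nearest profiles of each member. Alternatives were DESeq2 1.42.0, limma 3.58.1 (voom, log2 FPKM, log2 normalized count), other factors, filters and thresholds, a B cell covariate and leaving out libraries.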

Additional observations from a re-analysis of the deposited data

How the results depend on the processing

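The 5 members higher in KO (0 lower) became 2 with T lineage factors, 2 without WT replicates 1 and 3, 3 to 5 without single libraries, 1 with limma on log2(FPKM + 1) and 0 with log2(FPKM + 0.1), with log2(FPKM + 1) without a filter, with log2(normalized count + 1) and with the B cell covariate. DESeq2 and limma-voom called 5. The limma fits on log2 values called few genes overall (91 higher and 39 lower on log2(FPKM + 1)). The 1 other carrier higher in KO became 0 with the B cell covariate and with log2(FPKM + 1) without a filter. The 3 other carriers lower became 5 with T lineage factors, 6 with no filter, 0 with the B cell covariate, 1 without WT replicates 1 and 3, 0 to 6 without single libraries, 0 in the 4 limma fits on log2 values, 5 at a threshold of 0.1 and 0 at 0.01. With the B cell covariate Slc38a1 turned to 0.051 and Slc16a6 to 0.17, and Slc16a6 to 0.017 without WT replicates 1 and 3. Beyond the reasons built into a setting, the cause was not tested. No paired analysis was possible because the groups share no replicate number. With 3 libraries a group, their number limits the precision, besides depth.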
